A study of Mus musculus with 6 samples.

Results

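Tau and the kinases that phosphorylate it were followed as 10 transcripts: Mapt, which encodes tau, the kinase gene Cdk5 with its activator genes Cdk5r1 and Cdk5r2, the glycogen synthase kinase 3 genes Gsk3a and Gsk3b, and the microtubule affinity-regulating kinase genes Mark1, Mark2, Mark3 and Mark4. The genes were listed by name from tau biology, with earlier results of these data known, and all 10 have a row among the 19938 genes of the array. Expression was measured in the cortex of the adult forebrain of C57BL/6 mice. The 3 Dicer KO mice have the genotype CamKII-Cre/+;Dicer flox/flox, so that the CamKII promoter drives Cre in forebrain neurons in which both Dicer alleles are floxed. The 3 controls are littermates that are either CamKII-Cre/+;Dicer flox/+, with Cre and a single floxed allele, or else +/+;Dicer flox/flox, without Cre, and which control is which is not labelled. Every animal therefore carries at least 1 floxed Dicer allele, and a control with Cre can lose 1 allele. The labels give no age beyond adult. The title of the series links loss of Dicer to abnormal tau phosphorylation, and the question addressed here is whether the transcripts of tau and of these kinases differ between the groups.

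Tau binds and stabilises axonal microtubules, and phosphorylation loosens that binding. Cdk5 is a kinase of neurons that is inactive alone and is switched on by p35, the product of Cdk5r1, or by p39, the product of Cdk5r2. The protease calpain can cut p35 to p25, a longer-lived activator. Gsk3a and Gsk3b phosphorylate tau at sites followed by proline, often after another kinase has primed the substrate, and Akt inhibits them. The MARK kinases phosphorylate tau within its microtubule-binding repeats and are switched on by the kinase encoded by Stk11, LKB1. Phosphorylation itself is not measured by an array of transcripts.

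Dicer makes mature microRNAs, and the mature sequences of those reported in human cells to repress Cdk5r1 (miR-103 and miR-107) and tau (miR-34a) are shown because they connect the deleted enzyme to these transcripts. The sequences come from RefSeq (GRCm38.p6), run 5′ to 3′, and have bases 2 to 8, the seed that pairs with targets, in capitals.
mmu-miR-103-3p: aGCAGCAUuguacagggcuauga
mmu-miR-107-3p: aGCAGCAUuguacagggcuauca
mmu-miR-34a-5p: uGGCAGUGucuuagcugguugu
The miR-103 and miR-107 sequences share the seed GCAGCAU, and miR-34a has the seed GGCAGUG. Mature microRNAs were not measured, and no search for target sites was made. The array has rows for the precursor genes, and which RNA their probe sets bind was not examined. Mir103-1 had log2 values of 6.06, 5.96 and 6.05 in Dicer KO cortex, against 5.80, 5.62 and 5.56 in control cortex. The groups did not overlap, as in 20.3% of all genes. The difference of 0.36 ± 0.092 (SE) was not called (limma adjusted p = 0.131). Mir103-2 was at 0.41 ± 0.28, Mir107 at 0.25 ± 0.12 and Mir34a at 0.04 ± 0.14 (SE), each with overlapping groups. All values of Mir103-1, Mir107 and Mir34a lay below the median of every array (7.13 to 7.22), and their signal over background is not known. Mir34a was at -0.07 without Dicer KO array 3 and at 0.17 without control array 1. Mir103-2 was at 0.09 without control array 3 and at 0.649 without Dicer KO array 3, and Mir107 was at 0.154 without Dicer KO array 2. These 4 precursor genes were not in the list of genes to be named and were added with their values known.

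All values are log2 expression from 1 array per animal, and every difference is Dicer KO minus control. Array medians lay between 7.13 and 7.22, and r between any 2 arrays was 0.9749 to 0.9915 across rows, which are not independent replicates. Differences were tested with limma over all 19938 genes with Benjamini-Hochberg adjustment, and a gene is called at an adjusted p under 0.05. That gave 56 calls (18 higher, 38 lower), 0.281% of the genes. Without adjustment 2871 genes, or 14.4%, had a p under 0.05. Dicer1 itself read 9.58, 9.68 and 9.46 in Dicer KO cortex, against 9.17, 9.21 and 9.18 in control cortex, which is higher and not lower. Its difference of 0.39 ± 0.087 (SE) was not called (limma adjusted p = 0.102). Cells without the driver keep the gene, and the part of Dicer1 that its probe set reads was not examined, so the value checks neither the deletion nor the labels. The calls depended on single arrays: 129 genes were called without Dicer KO array 3 and 0 without any other single array, where limma still found 2197 to 2532 genes at an unadjusted p under 0.05. Both sexes are mixed in each group, since Eif2s3y, a gene of the Y chromosome, was high in Dicer KO arrays 1 and 3 and in control array 2. Control array 1 stood apart in olfactory bulb markers, with 10 measured of 11 listed genes lying 0.84 above the control mean, against -0.51 and -0.34 in the other controls and -0.46 to -0.40 in Dicer KO cortex.

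None of the 10 transcripts passed the threshold over all genes. The CDK5 activators Cdk5r1 and Cdk5r2 read lower in all 3 Dicer KO arrays than in any control, at about 0.8 of the control level. The other 8, tau, Cdk5, the GSK3 pair and the MARK kinases, had overlapping groups and differences between -0.12 and 0.10. By limma, 2 of the 10 had an unadjusted p under 0.05, both lower, against 14.4% of all genes in either direction and 7.39% lower. The same 2 of 10 had groups without overlap, against 20.3% of all genes in either direction, 11.0% lower and 9.30% higher. A share of 2 in 10 is close to these backgrounds and is not a result about the set. In all, 7 members were below 0 and 3 above, against 52.7% and 47.3% of all genes, and their median of -0.036 stands beside -0.0092 over all genes. The members' log2 values ran from 8.90 to 11.56, all above the array medians, though signal over background is not known.

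**Figure D1:**
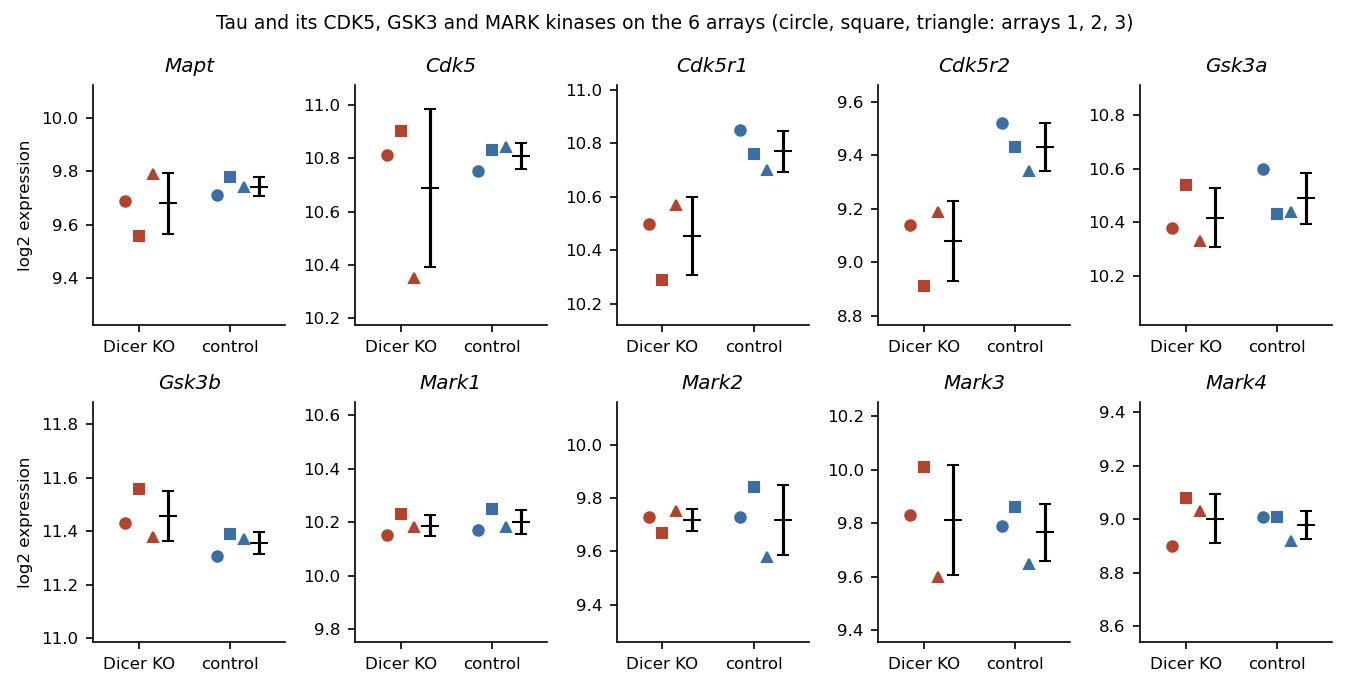
Log2 expression (vertical axes, each panel spanning the same range) of the 10 genes in Dicer KO cortex (red, left) and control cortex (blue, right); symbols mark array numbers 1 to 3, and the black bar is the mean with its SD (n = 3). The groups are apart for Cdk5r1 and Cdk5r2 and overlap for the other 8 genes, and Dicer KO array 3 is low for Cdk5.

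Tau is the substrate of these kinases. Mapt read 9.69, 9.56 and 9.79 in Dicer KO cortex, against 9.71, 9.78 and 9.74 in control cortex. The highest and the lowest of the 6 values both came from Dicer KO animals, whose SD was 0.116, against 0.0363 in controls. The means of 9.68 and 9.74 (n = 3 each) differed by -0.06 ± 0.09 (SE; limma adjusted p = 0.810), less than the spread between the Dicer KO arrays. The 95% interval of the difference ran from -0.27 to 0.14, a fold between 0.832 and 1.10 of control. It was at -0.00016 without Dicer KO array 2, at -0.12 without Dicer KO array 3 and at -0.102 with sex as a covariate. Isoforms of tau with and without exon 10 were not told apart by its single probe set.

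Over the 6 arrays, the genes whose pattern lay nearest to that of Mapt, by the root mean square difference of log2 values centred on each gene's own mean, were Tmem220 at 0.0197, Abtb2 at 0.0208 and Gm4868 at 0.0211. Like Mapt, each of these 3 genes was lowest in Dicer KO array 2 and had a difference of -0.07 to -0.04. They were picked from 19937 candidates on 6 arrays, and the measure is a description.

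Cdk5, the catalytic subunit, read 10.81, 10.90 and 10.35 in Dicer KO cortex, against 10.75, 10.83 and 10.84 in control cortex. Dicer KO array 3 was the lowest of all and the other Dicer KO arrays lay at or near the control values. The mean was 10.69 ± 0.295 in Dicer KO cortex and 10.81 ± 0.046 in control cortex (SD, n = 3 each). The difference of -0.12 ± 0.14 (SE; limma adjusted p = 0.749) had a 95% interval of -0.44 to 0.19, the widest of the 10. It changed sign without Dicer KO array 3, to 0.05, and was -0.23 without Dicer KO array 2 and -0.019 with array weights. A level of Cdk5 above or below control is therefore not shown.

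Cdk5r1, which encodes p35, read 10.50, 10.29 and 10.57 in Dicer KO cortex, against 10.85, 10.76 and 10.70 in control cortex. Every Dicer KO value lay below every control value, and array 2 was the lowest. The mean of 10.45 ± 0.142 in Dicer KO cortex was 0.802 times that of 10.77 ± 0.0765 in control cortex (SD, n = 3 each). The log2 difference of -0.32 ± 0.099 (SE) had an unadjusted p of 0.0104 and a limma adjusted p of 0.196, with a 95% interval of -0.54 to -0.10. Of all genes, 8.39% had a larger difference in size.

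Cdk5r2, which encodes p39, read 9.14, 8.91 and 9.19 in Dicer KO cortex, against 9.52, 9.43 and 9.34 in control cortex. Again all Dicer KO arrays were below all controls and array 2 was the lowest. The mean of 9.08 ± 0.152 in Dicer KO cortex was 0.785 times that of 9.43 ± 0.0928 in control cortex (SD, n = 3 each). The difference of -0.35 ± 0.10 (SE) had an unadjusted p of 0.00797 and a limma adjusted p of 0.178, with a 95% interval of -0.58 to -0.12. A larger difference was found in 6.59% of genes. Both activators kept their sign with each array left out in turn, at -0.38 to -0.24 for Cdk5r1 and -0.41 to -0.26 for Cdk5r2, with adjusted p from 0.131 to 0.433 and from 0.124 to 0.411. With array weights, Cdk5r2 was at -0.325 and passed (limma adjusted p = 0.0483), and Cdk5r1 did not (limma adjusted p = 0.053). That setting called 1116 genes in all, against 56 in the main fit.

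The activators moved together array by array. Among 19937 other genes, Cdk5r2 was the nearest to Cdk5r1 by the root mean square difference of centred log2 values, at 0.0207, and Cdk5r1 was the nearest to Cdk5r2. Pearson's r between them was 0.999 over the 6 arrays, which share the offset between the groups, and is given as a description. With that offset removed by centring each group on its own mean, Cdk5r2 ranked 5 among the genes nearest to Cdk5r1, and Cdk5r1 ranked 3 among those nearest to Cdk5r2. The log2 value of Cdk5r1 minus that of Cdk5r2 was 1.36, 1.39 and 1.37 in Dicer KO cortex, against 1.33, 1.33 and 1.36 in control cortex, so their difference hardly varied between arrays. The next nearest to Cdk5r1 were Syn1, which encodes the synaptic vesicle protein synapsin I, at 0.0232, and Aldh18a1, an enzyme gene of proline synthesis, at 0.0289. Syn1 differed by -0.34 and Aldh18a1 by -0.28. The activators are related genes, and whether their probes also bind each other's transcripts was not examined. Within males (Dicer KO arrays 1 and 3, control array 2) Cdk5r1 was at -0.23 and Cdk5r2 at -0.26. Within females (Dicer KO array 2, control arrays 1 and 3) Cdk5r1 was at -0.48 and Cdk5r2 at -0.52. The female Dicer KO value is that of a single animal, whose array was the lowest for both activators, and the male control is a single animal too.

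**Figure D2:**
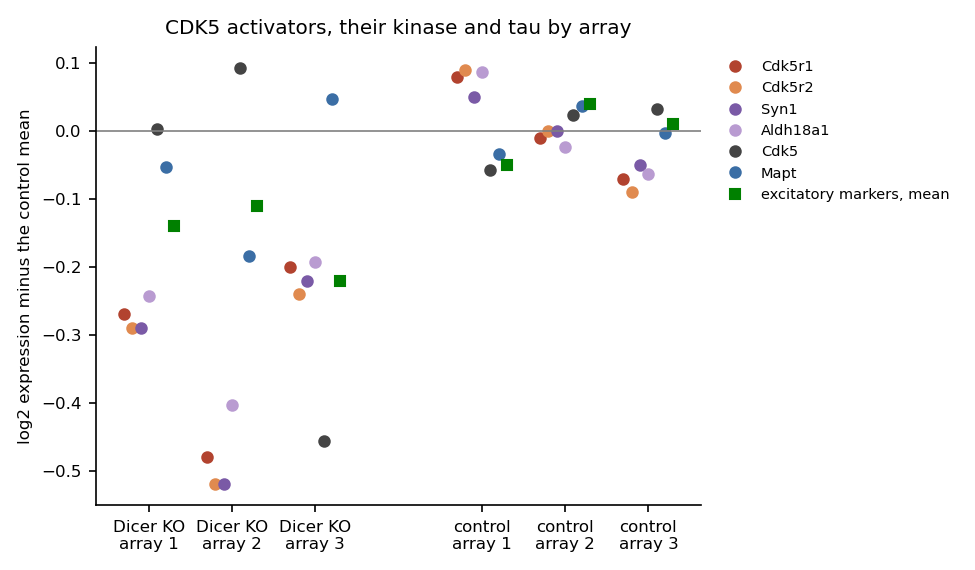
Log2 expression minus the gene's own control mean (vertical axis) on each of the 6 arrays (horizontal axis, Dicer KO left) for the CDK5 activators, their nearest genes Syn1 and Aldh18a1, Cdk5, Mapt and the mean of 14 excitatory neuron markers (squares). Cdk5r1 and Cdk5r2 lie close together on every array and are lowest in Dicer KO array 2, whereas Cdk5 is lowest in Dicer KO array 3.

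The upstream region of Cdk5r2, the member with the largest difference, is shown for the letters that general promoter motifs would have there. It is the 250 bases before the gene's start in RefSeq (GRCm38.p6, chr1:74854779-74855028, plus strand). Capitals mark the motif CCAAT, which reads ATTGG from the other strand, and the motif GGGCGG, which reads CCGCCC from the other strand; TATAAA was searched too, on both strands, and no 2 matches overlap.
Cdk5r2: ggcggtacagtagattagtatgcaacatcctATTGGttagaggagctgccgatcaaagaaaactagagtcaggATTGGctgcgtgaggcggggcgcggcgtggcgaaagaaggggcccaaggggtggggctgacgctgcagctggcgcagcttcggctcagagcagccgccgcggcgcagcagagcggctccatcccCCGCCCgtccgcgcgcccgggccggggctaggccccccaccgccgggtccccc
This stretch holds CCAAT at 2 places and GGGCGG at 1, all on the other strand, and no TATAAA on either strand. Of 32851 such regions of the genome, 33.8% hold CCAAT, 32.7% GGGCGG and 12.4% TATAAA on at least 1 strand. Bases G and C make up 68.8% of it, against a median of 52.4% over all regions. A match of letters is a description and not evidence of a factor's binding. Of the 10 genes, 6 have an entry in the set of upstream regions used here, Cdk5r1 not among them.

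The glycogen synthase kinase 3 genes differed by less than their errors or little more. Gsk3a read 10.38, 10.54 and 10.33 in Dicer KO cortex, against 10.60, 10.43 and 10.44 in control cortex. Gsk3b read 11.43, 11.56 and 11.38 in Dicer KO cortex, against 11.31, 11.39 and 11.37 in control cortex. Both genes were highest, among the Dicer KO animals, in array 2, and the groups overlapped, for Gsk3b narrowly, through Dicer KO array 3 and control array 2. The difference was -0.07 ± 0.095 for Gsk3a (SE; limma adjusted p = 0.781; 95% interval -0.29 to 0.14). It was 0.10 ± 0.086 for Gsk3b (SE; limma adjusted p = 0.654; 95% interval -0.09 to 0.30). Gsk3b kept its sign with each array left out, between 0.05 and 0.14, as did Gsk3a, between -0.14 and -0.02, and neither came near the threshold.

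The MARK kinases had the smallest differences of the set. Mark1 read 10.15, 10.23 and 10.18 in Dicer KO cortex, against 10.17, 10.25 and 10.18 in control cortex, nearly the same 3 values. Its difference of -0.01 ± 0.079 (SE) had a 95% interval of -0.19 to 0.17, a fold between 0.877 and 1.13. This is the narrowest interval of the 10.

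Mark2 has 2 probe sets. The brighter, used here, read 9.73, 9.67 and 9.75 in Dicer KO cortex, against 9.73, 9.84 and 9.58 in control cortex, a difference of -0.0046 ± 0.093 (SE). The dimmer read 8.96, 8.97 and 8.67 in Dicer KO cortex, against 9.02, 9.02 and 8.70 in control cortex, a difference of -0.046. On the dimmer probe set array 3 was the lowest of both groups, whereas on the brighter the Dicer KO arrays lay between the highest and the lowest control. The probe sets thus order the arrays differently, and neither separated the groups.

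Mark3 read 9.83, 10.01 and 9.60 in Dicer KO cortex, against 9.79, 9.86 and 9.65 in control cortex. In both groups array 2 was the highest and array 3 the lowest. The difference was 0.05 ± 0.12 (SE), with a 95% interval of -0.22 to 0.31. Mark4 read 8.90, 9.08 and 9.03 in Dicer KO cortex, against 9.01, 9.01 and 8.92 in control cortex, a difference of 0.02 ± 0.087 (SE) with an interval of -0.18 to 0.22. For all 4 genes the limma adjusted p lay at 0.899 or above. All 4 changed sign when single arrays were left out, Mark1 between -0.03 and 0.01, Mark2 between -0.07 and 0.06, Mark3 between -0.05 and 0.15 and Mark4 between -0.02 and 0.07.

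**Figure D3:**
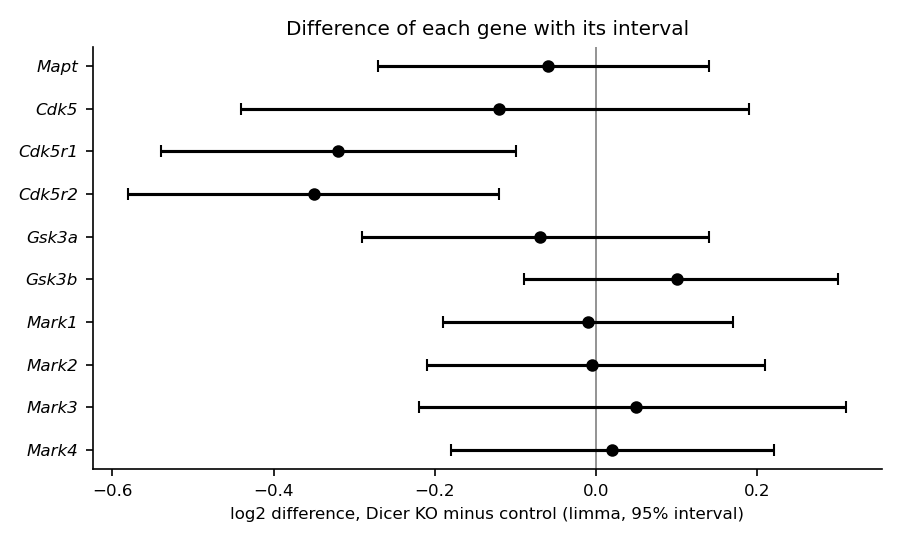
Log2 difference, Dicer KO minus control (horizontal axis), of each of the 10 genes with its 95% interval from limma. The intervals of Cdk5r1 and Cdk5r2 lie below 0 before adjustment for the number of genes, and the other 8 span 0, within -0.44 and 0.31.

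**Figure D4:**
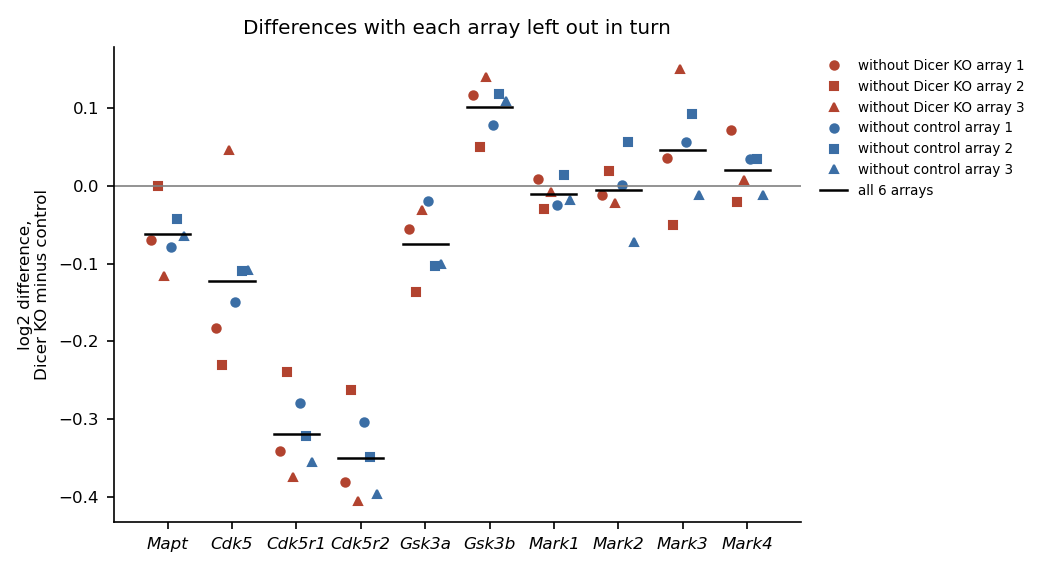
Log2 difference, Dicer KO minus control (vertical axis), of each gene with all 6 arrays (black lines) and with each array left out (red for a Dicer KO array, blue for a control array; circle, square and triangle for arrays 1, 2 and 3). Cdk5r1 and Cdk5r2 stay below -0.2 throughout, while Cdk5 crosses 0 without Dicer KO array 3 and the MARK genes lie on both sides of 0.

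From the most negative to the most positive, the differences ran from Cdk5r2 and Cdk5r1 through Cdk5, Gsk3a, Mapt, Mark1, Mark2, Mark4 and Mark3 to Gsk3b. Neighbours in this order have overlapping intervals, and no difference between members was tested. The members' standard errors ran from 0.079 to 0.14, beside a median of 0.10 over all genes.

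Genes that act on these kinases, or share their substrate, were taken as 10 lists, which are described by counts and medians beside those of all genes. Among 14 genes listed as regulators or partners of Cdk5, 9 were below 0 and 5 above, with a median of -0.087. None passed over all genes, and 1 higher and 3 lower had an unadjusted p under 0.05 (28.6%, beside 14.4% of all genes). Capn1, a catalytic subunit of the calpains that can cut p35, was at -0.33 ± 0.093 (SE; limma adjusted p = 0.171). Lmtk2, a membrane kinase that binds p35, was at -0.31 ± 0.11, and Cdkn1b, the cell cycle inhibitor p27 that CDK5 phosphorylates, at 0.42 ± 0.12 (SE). These 3 genes were named because they had the largest differences without overlap in the list, and 20.3% of all genes had groups without overlap. Genes named from the other lists were chosen in the same way, apart from Ppme1, which was called. The median of the list was -0.049 without Dicer KO array 1, -0.044 without control array 3 and -0.135 without Dicer KO array 3.

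The 23 measured of 25 regulators of Gsk3 were evenly spread, 13 above and 10 below 0, with a median of 0.013 and no call (limma; 4 at an unadjusted p under 0.05, 17.4%). Pik3r1, a regulatory subunit of the lipid kinase that activates Akt, was at 0.36 ± 0.089 (SE; limma adjusted p = 0.129). Lrp6, a Wnt co-receptor, was at 0.25 ± 0.094 (0.151 with array weights), and Apc, a scaffold of the complex in which Gsk3 marks beta-catenin for destruction, at -0.22 ± 0.097 (SE). Each of the 3 had groups without overlap, by which it was chosen. The median was -0.016 without control array 3, 0.026 without control array 1 and -0.021 with array weights, so the list has no stable side of 0.

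Of 14 regulators of the MARK kinases, 8 were above and 6 below 0, with a median of 0.026 and no call (3 at an unadjusted p under 0.05, 21.4%). Pak7, also called Pak5, a kinase that binds MARK2 and inhibits it, read 9.17, 9.24 and 9.50 in Dicer KO cortex, against 9.86, 9.79 and 10.02 in control cortex. Its difference of -0.59 ± 0.11 (SE) did not pass (limma adjusted p = 0.0772). It passed in limma without Dicer KO array 3 (-0.69, adjusted p = 0.0380), with the replicate block (adjusted p = 0.0390) and with array weights (adjusted p = 0.00692). These fits called 129, 215 and 1116 genes in all, against 56 in the main fit. Pak7 did not pass without any other single array (limma adjusted p from 0.166 to 0.226) or with every row tested (limma adjusted p = 0.268). Prkcz, an atypical protein kinase C that phosphorylates MARK and releases it from membranes, was at -0.40 ± 0.093 (adjusted p = 0.107), and Dapk1, a kinase that activates MARK, at 0.36 ± 0.11 (SE). All 3 were chosen as the largest differences without overlap in the list. The median was -0.067 without Dicer KO array 2, 0.003 without Dicer KO array 1 and 0.088 without Dicer KO array 3, and 0.013 and 0.046 without control arrays 1 and 2. In the 12 relatives of the MARK kinases in the AMPK family, 6 were above and 6 below 0 with no call, and Prkaa2, a catalytic subunit of AMPK, was at 0.41 ± 0.098 (SE; limma adjusted p = 0.119).

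Other kinases of tau were measured for 32 of 37 listed genes, 14 above and 18 below 0, with a median of -0.042 and no call (4 at an unadjusted p under 0.05, 12.5%). The median was -0.092 without Dicer KO array 2, -0.015 without Dicer KO array 3 and -0.024 without control array 2. Mapk11, a p38 kinase, was at -0.54 ± 0.11 (SE; limma adjusted p = 0.0804). Prkca and Prkcb, conventional protein kinases C, were at -0.45 ± 0.12 and -0.40 ± 0.078 (SE). Prkcb had 11.95, 11.99 and 11.98 in Dicer KO cortex, against 12.37, 12.40 and 12.33 in control cortex, so each group was tight and they lay apart, and limma gave an adjusted p of 0.0780.

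Of 19 tau phosphatase genes, 14 were below and 5 above 0, beside 52.7% of all genes below 0, with a median of -0.053. By limma, 2 higher and 2 lower had an unadjusted p under 0.05 (21.1%, beside 14.4% of all genes). The median was -0.102 without Dicer KO array 2, -0.015 without Dicer KO array 3 (8 above 0), and -0.087 and -0.093 without control arrays 1 and 2 (3 and 5 above 0). Ppme1, which removes a methyl group from the catalytic subunit of protein phosphatase 2A, was the single call in the 10 lists, where 0.281% of all genes were called. A single call is not a result about the lists. Ppme1 read 10.72, 10.78 and 10.76 in Dicer KO cortex, against 11.25, 11.43 and 11.34 in control cortex, and fell by 0.58 on the log2 scale (SE 0.085; limma adjusted p = 0.0413), to 0.667 of control. The difference lay between -0.629 and -0.537 with each array left out. The call was lost without any single array other than Dicer KO array 3, with adjusted p from 0.112 to 0.185, in fits that called 0 genes in all. Ppp2r1b, which encodes a scaffold of that enzyme, was at 0.59 ± 0.13 and Ppp3cb, a catalytic subunit of calcineurin, at -0.22 ± 0.091 (SE).

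The 13 other microtubule-associated proteins had a median of -0.037, with 7 below and 6 above 0, no call and 4 at an unadjusted p under 0.05 (30.8%). Map1a, a microtubule-binding protein of mature dendrites, read 10.59, 10.71 and 10.69 in Dicer KO cortex, against 11.28, 11.17 and 11.01 in control cortex, and its difference of -0.49 ± 0.096 (SE) did not pass (limma adjusted p = 0.0780). Stmn2 and Stmn3, tubulin-binding stathmins, were at -0.40 ± 0.10 and -0.42 ± 0.12 (SE). With its probe sets averaged Stmn3 was at -0.172 (limma adjusted p = 0.505). These 3 had the largest differences without overlap in the list, by which they were chosen. The median of the list was -0.084 without Dicer KO array 3 and -0.011 after a second quantile normalization.

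Among 16 measured of 18 other substrates of Cdk5 and Gsk3, 9 were above and 7 below 0, with a median of 0.016, no call and 5 at an unadjusted p under 0.05 (31.2%). Nefm, the medium neurofilament subunit, was at -0.66 ± 0.14 (SE; limma adjusted p = 0.0885), Syn1 at -0.34 ± 0.099 and Dpysl3, a collapsin response mediator protein, at 0.33 ± 0.12 (SE). The median was -0.023 without control array 1. Of 15 measured of 18 genes of tau handling, such as chaperones and modifying enzymes, 9 were above and 6 below 0, with a median of 0.040, no call and 0 at an unadjusted p under 0.05. Hspa8, the constitutive Hsc70 chaperone, was at -0.21 ± 0.097 and Fkbp4, an Hsp90 co-chaperone, at -0.13 ± 0.081 (SE). Both were named because their groups did not overlap. The median of the tau handling genes was -0.022 without Dicer KO array 2, 0.024 without Dicer KO array 1, 0.005 without control array 3 and 0.079 without control array 1.

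Regulators of the splicing of tau exon 10, which decides between tau with 3 and tau with 4 microtubule-binding repeats, all lay on the same side. The 17 measured of 21 listed genes were each above 0, beside 47.3% of all genes, with differences from 0.03 to 0.48 and a median of 0.157. None passed over all genes (limma; 6 at an unadjusted p under 0.05, 35.3%). Clk1, a kinase of splicing factors, read 11.33, 11.67 and 11.15 in Dicer KO cortex, against 10.94, 11.11 and 10.66 in control cortex, a difference of 0.48 ± 0.16 (SE; limma adjusted p = 0.213). Ptbp2, the neuronal polypyrimidine tract-binding protein, was at 0.33 ± 0.11 and Tra2b, a splicing activator, at 0.30 ± 0.097 (SE), or 0.448 with its probe sets averaged. In Dicer KO arrays 1 to 3 the list averaged 0.14, 0.26 and 0.13 above the control mean, against 0.01, 0.08 and -0.10 in control arrays 1 to 3. The count above 0 was 13 without control array 3, 15 without Dicer KO array 3, 16 without Dicer KO array 2, 14 with array weights and 17 in every other alternative, and the median stayed between 0.108 and 0.214. Genes of a list vary together, so the count is a description, and exon 10 itself was not measured.

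**Figure D5:**
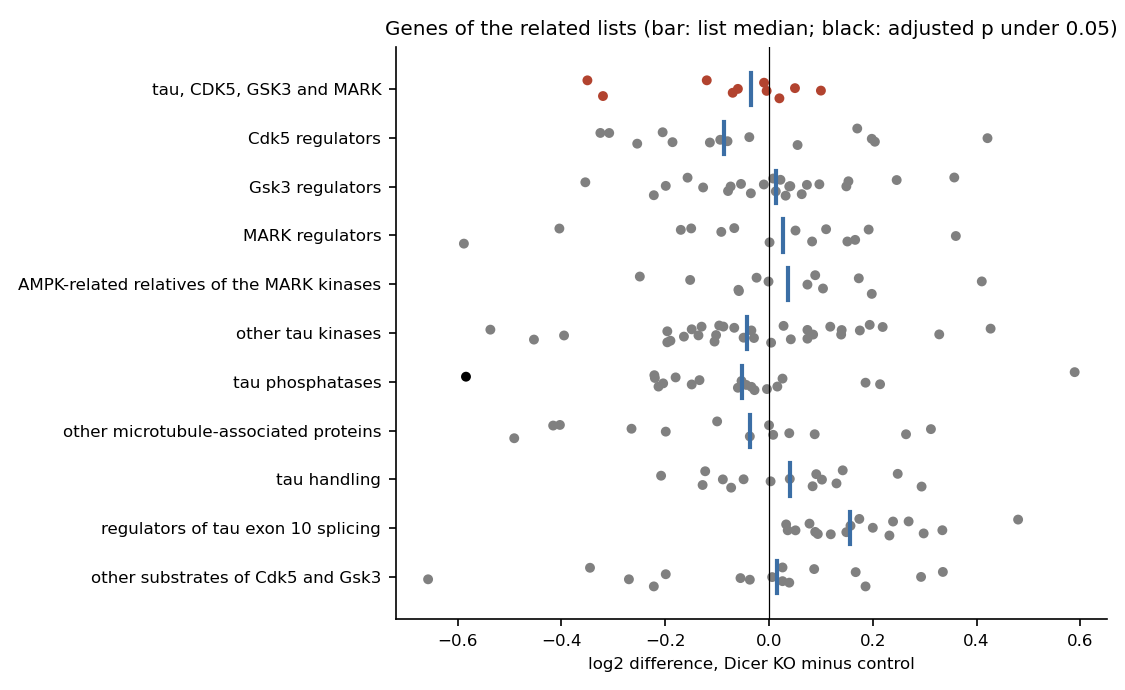
Log2 difference, Dicer KO minus control (horizontal axis), of the 10 tau, CDK5, GSK3 and MARK genes (red, top) and of the measured genes of the 10 related lists (grey; black for an adjusted p under 0.05), with the list median as a blue bar. Ppme1 is the black point at -0.58, and all 17 regulators of tau exon 10 splicing lie right of 0.

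Markers of cell types were measured on the same arrays. Of 16 listed markers of excitatory neurons 14 were measured, 9 below and 5 above 0, with a median difference of -0.112. Nrgn, which encodes the postsynaptic calmodulin-binding protein neurogranin, was called: it read 11.27, 11.31 and 11.22 in Dicer KO cortex, against 11.97, 11.90 and 11.76 in control cortex. It fell by 0.60 on the log2 scale (SE 0.088; limma adjusted p = 0.0413), and by 0.56 to 0.66 with each array left out (adjusted p from 0.0488 to 0.188). Lamp5, a membrane protein gene of some cortical neurons, was at -1.19 and did not pass (limma adjusted p = 0.0548). Nptx1, of the same list, went the other way, at 0.41, and did not pass either (limma adjusted p = 0.079). Nrgn, Lamp5 and Nptx1 were named after their values were seen. From the control mean, the 14 measured markers averaged -0.14, -0.11 and -0.22 in Dicer KO arrays 1 to 3, against -0.05, 0.04 and 0.01 in control arrays 1 to 3. Their summed linear signal was 23498 to 28788 in Dicer KO cortex, against 30061 to 32154 in control cortex. These markers were lowest in Dicer KO array 3, whereas Cdk5r1 and Cdk5r2 were lowest in array 2, and their part in the values of the activators was not tested. In tissue of mixed cells, fewer cells of a type and less RNA per cell cannot be told apart. Slc17a7, a vesicular glutamate transporter of excitatory neurons, read 12.06 to 12.27 in Dicer KO cortex and 12.12 to 12.37 in control cortex. A single gene does not establish the cortical label, and olfactory bulb markers were high in control array 1. The array values have no 0, and the dimmest excitatory marker had 7.78, above every array median.

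Of the 14 markers of GABAergic interneurons, 8 were below and 6 above 0, with a median of -0.017 and a summed signal of 18885 to 20623 in Dicer KO cortex and 18960 to 22804 in control cortex. Astrocyte markers were above 0 in 10 of 12, with a median of 0.098 and a sum of 36753 to 42407 in Dicer KO cortex and 33342 to 36477 in control cortex. In Dicer KO array 3, where Cdk5 was lowest, astrocyte markers averaged 0.48 and microglia markers 0.66 above the control mean, against 0.05 to 0.15 and -0.27 to -0.08 in the other Dicer KO arrays. Oligodendrocyte markers averaged 0.43 in that array, and 0.42 in control array 3, where Cdk5 read 10.84. The part of these markers in the low Cdk5 value of Dicer KO array 3 was not tested. The 11 measured of 12 microglia markers summed to 3296 to 6932 in Dicer KO cortex and 3565 to 4527 in control cortex. The sums overlapped for 11 of 12 oligodendrocyte markers (9442 to 14158 in Dicer KO cortex, 9585 to 14229 in control cortex) and for 10 of 10 endothelial and mural markers (5100 to 5550 in Dicer KO cortex, 4509 to 5519 in control cortex). They were lower in every Dicer KO array for the 6 oligodendrocyte precursor markers (1978 to 2282 in Dicer KO cortex, 2318 to 2768 in control cortex) and higher for the 8 meningeal and fibroblast markers (2431 to 3031 in Dicer KO cortex, 2083 to 2326 in control cortex). Choroid plexus markers, 7 of 8 measured, summed to 766 to 2407 in Dicer KO cortex and 741 to 865 in control cortex. Of these, Ttr was at 1.283 and not called (limma adjusted p = 0.319). The other measured markers of that list lay between -0.042 and 0.069, and the list median was 0.012. Olfactory bulb markers summed to 1510 to 1670 in Dicer KO cortex and 1485 to 3789 in control cortex. Without control array 1, the array with the high olfactory bulb markers, Cdk5r1 was at -0.279 and Cdk5r2 at -0.304.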

How the data were processed

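The authors deposited 1 table of log2 values, 35557 probe sets by 6 arrays, with 200 ng of total RNA per animal labelled for an Affymetrix whole-transcript array per the labels' protocols. Per the submitters' processing notes the tools were RMA and limma; their versions, background step and genome build: not given in the sources used here. Low-signal transcripts have compressed differences after RMA. Because the deposited columns share almost 1 distribution, a shift of most genes at once could not be seen. The number of arrays limits precision, and p-values refer to the spread over animals that the labels call biological replicates.

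Of the rows, 21789 have 1 gene symbol in the platform annotation, 21698 of them with the symbol read through the gene identifier (GRCm38.p6). Rows with several symbols (1621) or none (12147) were left out. For a gene with several probe sets the highest mean was used, leaving 19938 genes. The test was limma 3.58.1 (R 4.3.3), with a group term alone, two-sided, 4.89 prior degrees of freedom, and the steps were tested on simulated data. An exact permutation test of 3 against 3 cannot give a p below 0.1. Named beside the members are list genes called or, up to 3 a list, those of largest difference without overlap. Members and lists were chosen with earlier results of these data known. Some listed genes were not analysed here. Alternatives were a block for the array number, leaving out each array, sex as a covariate, array weights, a trended and robust prior, centring on medians, quantile normalization of the genes, no dim genes, the mean of a gene's probe sets, and a test of all rows.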

Additional observations from a re-analysis of the deposited data

How the results depend on the processing

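Of 90 differences of the 10 genes under the alternatives other than leaving out an array, 88 kept their sign and their side of the threshold. Array weights were the exception: Cdk5r2 was at -0.325 and passed (adjusted p = 0.0483), which made 1 member called instead of 0, and Mark4 was at -0.070 and Mir34a at -0.128, both with the opposite sign. With each array left out, 50 of 60 values kept their sign, and the rest were Cdk5 (-0.230 to 0.046), Mark1 (-0.029 to 0.014), Mark2 (-0.072 to 0.057), Mark3 (-0.050 to 0.151) and Mark4 (-0.021 to 0.072), while Mir34a ran from -0.069 to 0.172. No member was called in any of those fits. Over all genes, 56 calls became 215 with the replicate block, 118 without the dimmer genes, 0 with every row tested (3725 at an unadjusted p under 0.05 in limma), 1116 with array weights, 0 with sex as a covariate (2292 at an unadjusted p under 0.05), and 0 to 129 with an array left out. With the replicate block no member was called. The labels do not say that array numbers pair animals, so the main fit had no block. Deviations from the group means of same-numbered arrays correlated at 0.089, 0.166 and 0.294, and those of differently numbered arrays at -0.229 to 0.094. Control array 1 correlated slightly better with Dicer KO array 2, at 0.094, than with Dicer KO array 1, at 0.089. Whether the numbers mark a shared litter or day was not tested. Among the other named genes, 22 values newly passed under other settings, most of them with array weights, and 2 calls were lost, both of Ppme1, with every row tested and with sex as a covariate. The causes were not tested. The deposited values carry no detection call, so what signal over background limits is not known.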

Other observations

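The effect of group was also compared between the sexes, a comparison chosen after the values were seen, with 2 male and 1 female Dicer KO animals and 1 male and 2 female controls. Cdk5 was at -0.25 in males and 0.10 in females, and Mark3 at -0.14 in males and 0.28 in females. The interaction of group and sex did not pass for either (limma adjusted p = 0.816 and 0.787), nor for any of the 19938 genes (0 called, 1100 at an unadjusted p under 0.05).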
